A study of Rosa hybrid cultivar with 12 samples.

Results

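Raising the sucrose dose of rose buds from 10 to 100 mM while the synthetic auxin NAA was present was the comparison examined here, in 6 of the 12 libraries of the series. Both groups were wild type, a hybrid rose cultivar, and both received 1 µM NAA. Their treatments differed in sucrose alone, at 10 mM (3 libraries) or 100 mM (3 libraries). The labels give flower bud as the tissue, while the series title speaks of budburst. Libraries of the same number shared a harvest date, 20 June, 20 August or 20 October, and were paired by it. The other 6 libraries, with the same sucrose doses and no NAA, entered the fit and served as the reference for sucrose without auxin.

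Buds below a growing shoot tip are held back by apical dominance. Auxin moving down the stem keeps axillary buds from growing out, and it acts without entering them, in part through strigolactones, which restrain buds, and cytokinins, which release them. Sucrose is both a carbon source and a signal for buds, and a higher supply favours their outgrowth. In its title the series sets auxin and sugar against each other, and this comparison asks which transcripts the higher sucrose dose changed when auxin was already there.

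The files give gene IDs without gene names, so no pathway or gene function can be attached to a value and the labelled tissue could not be checked against its markers. The IDs named below were chosen by size of change in abundance. In bulk RNA, fewer cells of a type and less RNA per cell cannot be told apart. Gene counts of the 6 libraries ran from 7369267 to 16757019. At 10 mM with NAA, the June library stood apart. Its 100 top genes made up 24.9% of all its counts. In the remaining libraries those same genes took 11.1% to 13.8%. Its scaling factor was 0.745, against 0.976 to 1.10. The labels also give the June libraries different planting dates, with NAA 2 June at 10 mM and 2 August at 100 mM, and without it 2 May and 2 July. The dates in July and August fall after the June harvest, and the 29 August planting date of all 4 August libraries falls after their own harvest. The October libraries have a planting date of 20 October, the day of their harvest. The harvest dates used for pairing come from the same label. If the planting dates are right, planting date and sucrose dose cannot be told apart in June.

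With NAA present, 1692 genes rose at 100 mM sucrose and 1867 fell, out of 24267 tested. This was 6.97% and 7.69% of the genes tested, or 14.7% together, by edgeR's quasi-likelihood test at a Benjamini-Hochberg adjusted p under 0.05. The genes that rose had a median log2 fold change of 0.95 and those that fell one of -0.89. At least a doubling was estimated for 769 of the genes that rose (3.17% of those tested), and at least a halving for 775 of those that fell (3.19%). Larger changes leaned to one side: a log2 fold change of 3 or more was estimated for 53 genes that rose (0.218%) and 13 that fell (0.0536%), and one of 2 or more for 172 (0.709%) and 117 (0.482%). The count depended on the pairing by date and on the libraries without NAA in the fit. With no replicate block the edgeR count was 490 up and 515 down, and each of these 1005 genes was also in the list of 3559. From the 6 libraries with NAA alone it called 1750 with the block and 1 without it. The count was 1122 and 875 without replicate 2 and replicate 3 of 100 mM with NAA, and 1685 without replicate 2 of 10 mM with NAA. It was 328 without the August and 938 without the October harvest. Without the June library that stood apart it was 4121, of which 2981 were in the list of 3559.

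**Figure D1:**
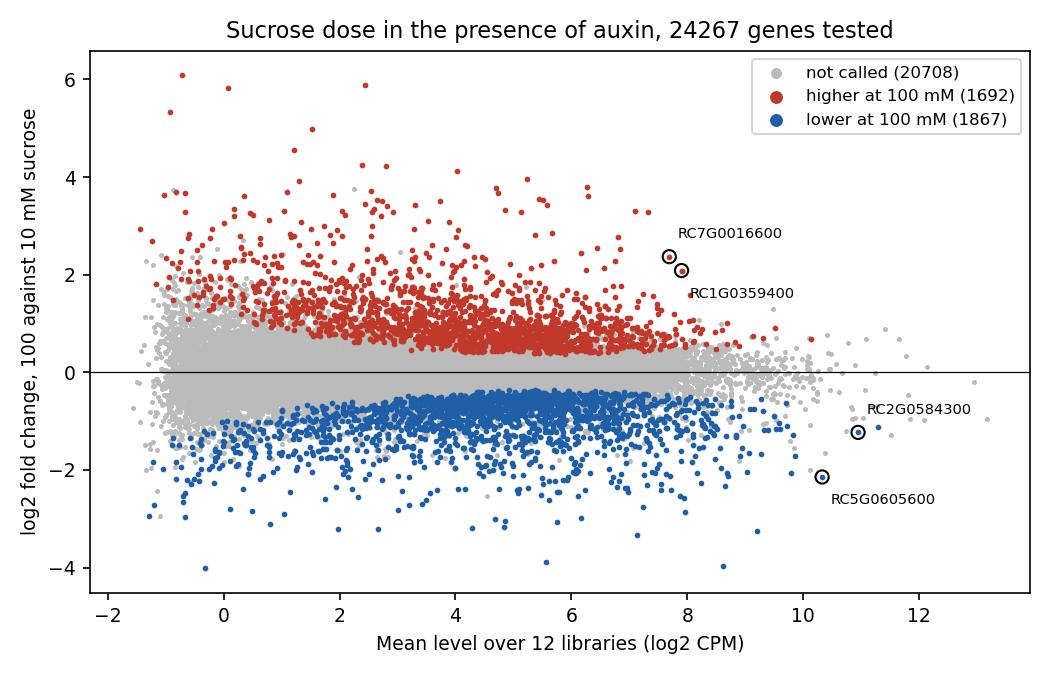
Each point is a gene, with its mean level over all 12 libraries (log2 CPM) on the x axis and the log2 fold change of 100 against 10 mM sucrose, both with NAA, on the y axis. The 1692 genes higher and 1867 lower at 100 mM are coloured and the 4 genes described in the text are circled.

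The gene that gained most in abundance by the naming rule was gene:RC7G0016600. At 10 mM with NAA it stood at 46.5 CPM (gene counts after scaling for library size) in June, 54.8 in August and 108 in October. At 100 mM with NAA the same dates gave 279.8, 519 and 278 CPM. Every library at 100 mM lay above every library at 10 mM, as the naming rule required. The group mean went from 69.7 ± 33.3 to 359 ± 139 CPM (SD, n = 3), a log2 fold change of 2.37 (SE 0.325, edgeR adjusted p = 0.00236). The rise was 2.59, 3.24 and 1.36 in log2 CPM in June, August and October. Of 22 alternative settings, the call was lost in 1, the 6 libraries with NAA fitted alone with no block (edgeR adjusted p = 0.138).

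The second gene that rose, gene:RC1G0359400, showed a wider spread at the low dose. Its levels at 10 mM with NAA were 128 CPM in June, 23.0 in August and 154 in October. At 100 mM they were 357, 341 and 428 CPM, again with no overlap between the groups. The mean went from 102 ± 69.2 to 375 ± 46.3 CPM (SD, n = 3), a log2 fold change of 2.08 (SE 0.463, edgeR adjusted p = 0.0143). August, with the lowest level at 10 mM, had a difference of 3.88 in log2 CPM, against 1.48 in each of the other months. The edgeR adjusted p was 0.0621 with no replicate block, and 0.0546 and 0.0526 without replicate 2 and replicate 3 of 100 mM with NAA. It was 0.0576 without August, 0.0658 without October and 0.218 in the 6 libraries with NAA alone with no block.

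Among the genes that fell, gene:RC5G0605600 lost the most. At 10 mM with NAA it had 2777 CPM in June, 5858 in August and 2115 in October, and at 100 mM it had 1773, 631 and 309. The groups did not overlap, but the June libraries were much closer to each other than those of the other months. The differences in log2 CPM were -0.65, -3.21 and -2.78. The mean went from 3584 ± 1998 to 904 ± 769 CPM (SD, n = 3), a log2 fold change of -2.14 (SE 0.431, edgeR adjusted p = 0.00938). The call was lost with no replicate block (edgeR adjusted p = 0.071), in the 6 libraries with NAA alone with or without the block (0.0719 and 0.247), without replicate 2 or 3 of 100 mM with NAA (0.0613 and 0.0677), and without August or October (0.146 and 0.121). Without the June harvest the log2 fold change was -2.99 (edgeR adjusted p = 0.00071).

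The other gene that fell, gene:RC2G0584300, was abundant in every library. It had 3750 CPM in June, 4083 in August and 2621 in October at 10 mM with NAA. At 100 mM it had 2077, 1333 and 1090.1 CPM, all below the lowest library at 10 mM. The differences in log2 CPM were -0.85, -1.61 and -1.27. The mean went from 3485 ± 766 to 1500.1 ± 514 CPM (SD, n = 3), a log2 fold change of -1.23 (SE 0.217, edgeR adjusted p = 0.0059). The call was lost in the 6 libraries with NAA alone with or without the block (edgeR adjusted p = 0.0944 and 0.231) and without August or October (0.139 and 0.0936).

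**Figure D2:**
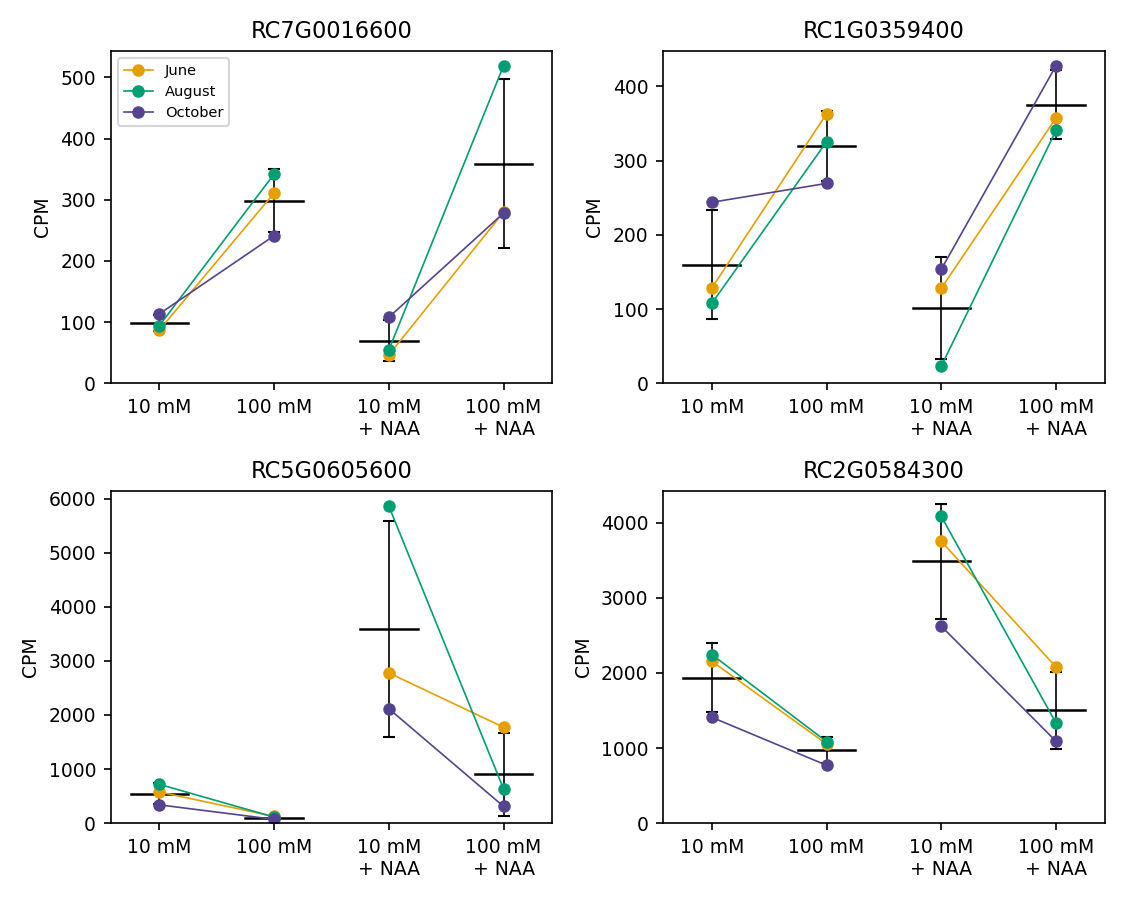
CPM of the 4 genes in all 12 libraries, with the month of harvest as colour and lines joining the 10 and 100 mM libraries of one date. Black bars are means and error bars 1 SD over 3 libraries. In each panel the pair with NAA moves the same way on all 3 dates, as the naming rule required. For gene:RC5G0605600 the log2 difference with NAA is smallest in June.

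The same 4 genes moved the same way when sucrose was raised without NAA. There the log2 fold change was 1.62 for gene:RC7G0016600 (SE 0.313, edgeR adjusted p = 0.0129) and -2.39 for gene:RC5G0605600 (SE 0.424, edgeR adjusted p = 0.00864). It was -0.98 for gene:RC2G0584300 (SE 0.215, edgeR adjusted p = 0.0235). For gene:RC1G0359400 it was 1.13 (SE 0.446), which was not called (edgeR adjusted p = 0.208). The levels differed more than the folds for gene:RC5G0605600, which stood at 544 ± 192 CPM at 10 mM and 102 ± 28.0 CPM at 100 mM without NAA (SD, n = 3). In the test of the difference itself, the fold with NAA minus the fold without it was 0.75 for gene:RC7G0016600, 0.95 for gene:RC1G0359400, 0.25 for gene:RC5G0605600 and -0.25 for gene:RC2G0584300. The SE of this difference was 0.434, 0.624, 0.577 and 0.302, and none was called (edgeR adjusted p = 0.739 to 0.93).

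Genes of every abundance were called, though not in equal shares. The tested genes were split by mean level into 4 bins of equal size. In the lowest bin, up to 2.68 CPM, 196 genes rose and 147 fell, or 5.65% of the bin. In the next bin, up to 10.7 CPM, 415 rose and 323 fell (12.2%). Between 10.7 and 36.3 CPM, 558 rose and 627 fell (19.5%). In the top bin, 523 rose and 770 fell (21.3%). The part of counting error, which is larger for low genes, in these shares was not tested. The balance between directions turned with abundance among the larger changes. Among genes called with a log2 fold change of at least 2 in size, 64 rose and 25 fell in the lowest bin, whereas 23 rose and 54 fell in the top bin. The June library that stood apart belongs to the 10 mM group. Of its 100 top genes, 26 were called lower and 0 higher, against 7.69% and 6.97% of all genes tested. These genes were picked as the highest in a library of the 10 mM group, and the choice itself favours lower calls. Their excess is therefore no separate result. The part of that library in the balance was not tested. Of the 100 most abundant genes of the series, 1 rose and 8 fell, against 6.97% and 7.69% of all genes tested. The share that fell was near that of all genes and the share that rose was below it. Both were below the shares of the top bin, where 523 and 770 of 6067 genes rose and fell.

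The genes that rose took up a larger part of the transcript pool at 100 mM, and those that fell a smaller one. The 1692 genes that rose held 2.53%, 2.94% and 4.54% of gene counts at 10 mM with NAA in June, August and October, and 5.81%, 6.54% and 8.18% at 100 mM. The 1867 that fell held 17.8%, 22.8% and 15.8% at 10 mM and 12.9%, 9.87% and 8.06% at 100 mM. The genes were chosen on these libraries, so the direction follows from the choice. The libraries without NAA are not compared in this contrast, but they share its fit and so had a part in which genes were called. In them, the genes that rose held 6.67% ± 0.794 at 10 mM and 8.88% ± 0.167 at 100 mM, and the genes that fell held 10.2% ± 1.44 and 5.93% ± 0.307 (SD, n = 3). The mean of the 100 mM group with NAA, at 6.84% ± 1.21 and 10.3% ± 2.42 (SD, n = 3), lay within 1 SD of that of the 10 mM group without NAA on both measures. Whether these groups are alike was not tested, and the genes were chosen on the first of them.

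**Figure D3:**
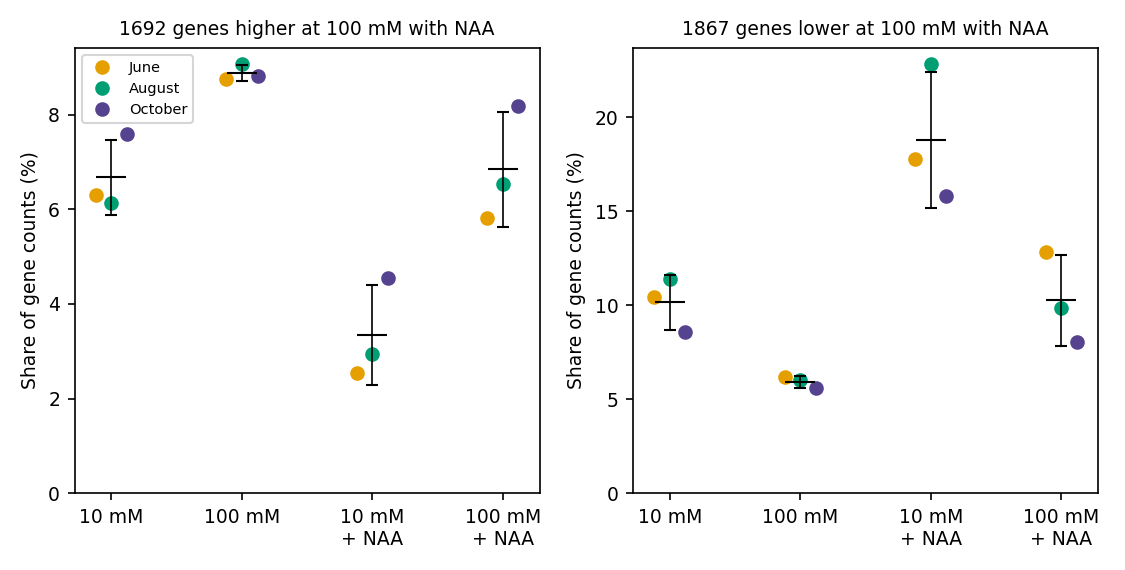
Share of all gene counts (%) held by the genes that rose (left) and fell (right) at 100 mM with NAA, in each of the 12 libraries by month of harvest, with the mean and 1 SD over 3 libraries. The mean at 100 mM with NAA lies within 1 SD of that at 10 mM without NAA in both panels, a likeness that was not tested.

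The 3 dates did not contribute alike. Of the genes called, 1687 of the 1692 that rose and 1849 of the 1867 that fell had the same sign on all 3 dates. They made up 6.95% and 7.62% of the genes tested. Called or not, 6042 and 5804 of all 24267 genes tested (24.9% and 23.9%) were higher or lower on all 3. The groups did not overlap for 1283 of the 1692 and 1421 of the 1867 (5.29% and 5.86% of the genes tested). Called or not, they did not overlap for 2659 and 2714 of all 24267 genes tested (11% and 11.2%). Both measures come from the libraries that gave the calls. Over all 24267 genes, the SD of the log2 difference was 0.802 in June, 0.775 in August and 0.62 in October. August and October matched each other best: across genes, their differences had r = 0.72 (Spearman's rho 0.664). June had r = 0.34 with August and 0.42 with October (rho 0.299 and 0.377). Genes are not independent replicates, and each pair of dates shared no library. Libraries varied most at 10 mM with NAA, where the median SD of log2 CPM was 0.31 over the 18200 genes above the lowest bin, against 0.23 at 100 mM with NAA and 0.18 in each group without NAA.

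Sucrose had also been raised without NAA, and the genes it moved there were followed in the libraries with NAA. In the fit of all 12 libraries, whose date terms and spread both comparisons share, 409 genes rose at 100 mM without NAA and 839 fell, which was 1.69% and 3.46% of the genes tested, or 5.14% together. With NAA, 401 of the 409 had a positive log2 fold change, with a median of 1.24, and 832 of the 839 had a negative one, with a median of -0.91. Over all tested genes the median was -0.01, and 69.8% had the same sign with and without NAA. By date, the medians were 0.95 in June, 1.30 in August and 1.18 in October for the genes that rose without NAA, and -0.61, -1.05 and -0.94 for those that fell, so both sets were displaced least in June. The choice of genes was free of the libraries with NAA when it came from a fit of the 6 libraries without NAA alone, and then 460 of 487 and 891 of 909 had the same sign, with medians of 1.11 and -0.90. The count without NAA was 480 with no replicate block. Leaving out replicate 1 or 2 of 100 mM without NAA gave 533 and 440, and leaving out replicate 1 or 2 of 10 mM without NAA gave 711 and 393. The count was 1915 without replicate 1 of 10 mM with NAA, and 207 and 468 without August and October.

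**Figure D4:**
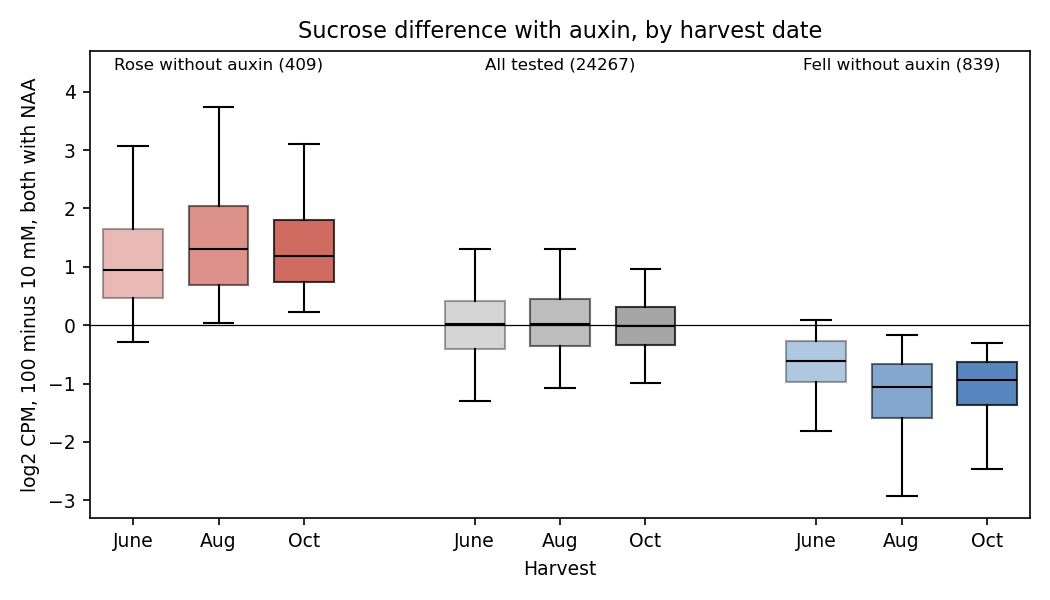
Log2 CPM at 100 mM minus 10 mM sucrose, both with NAA, on each harvest date, for the 409 genes that rose and the 839 that fell without NAA and for all 24267 genes tested. Boxes span the 25th to 75th percentiles with the median as a line, and whiskers reach the 5th and 95th percentiles. The medians of the first set run from 0.95 to 1.30 and those of the last from -1.05 to -0.61.

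Most genes called with NAA were not called without it, yet no gene passed the test of a difference. Of the 1692 genes that rose with NAA, 292 were called higher without it, 17.3% of the longer list and 71.4% of the shorter. Of all genes tested, 1.69% were called higher without NAA and 6.97% with it. Of the 1867 that fell with NAA, 643 were called lower without it, 34.4% and 76.6% of the respective lists, against 3.46% and 7.69% of all genes tested. No gene was called in opposite directions. The genes that rose with NAA had a median log2 fold change of 0.40 without it, and those that fell had one of -0.61. These genes were chosen on the change measured with NAA, and such a choice favours larger values there. How much of the difference in size this made up was not tested. Across all genes the 2 sucrose effects had r = 0.64 (Spearman's rho 0.548), from different libraries that share the date terms of the fit. For the difference between the effects with and without NAA, edgeR called 0 genes, or 0%, with a smallest adjusted p of 0.717 and 1683 genes at an unadjusted p under 0.05. With no block it called 0, with 834 such genes. DESeq2 with the block called 8.

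**Figure D5:**
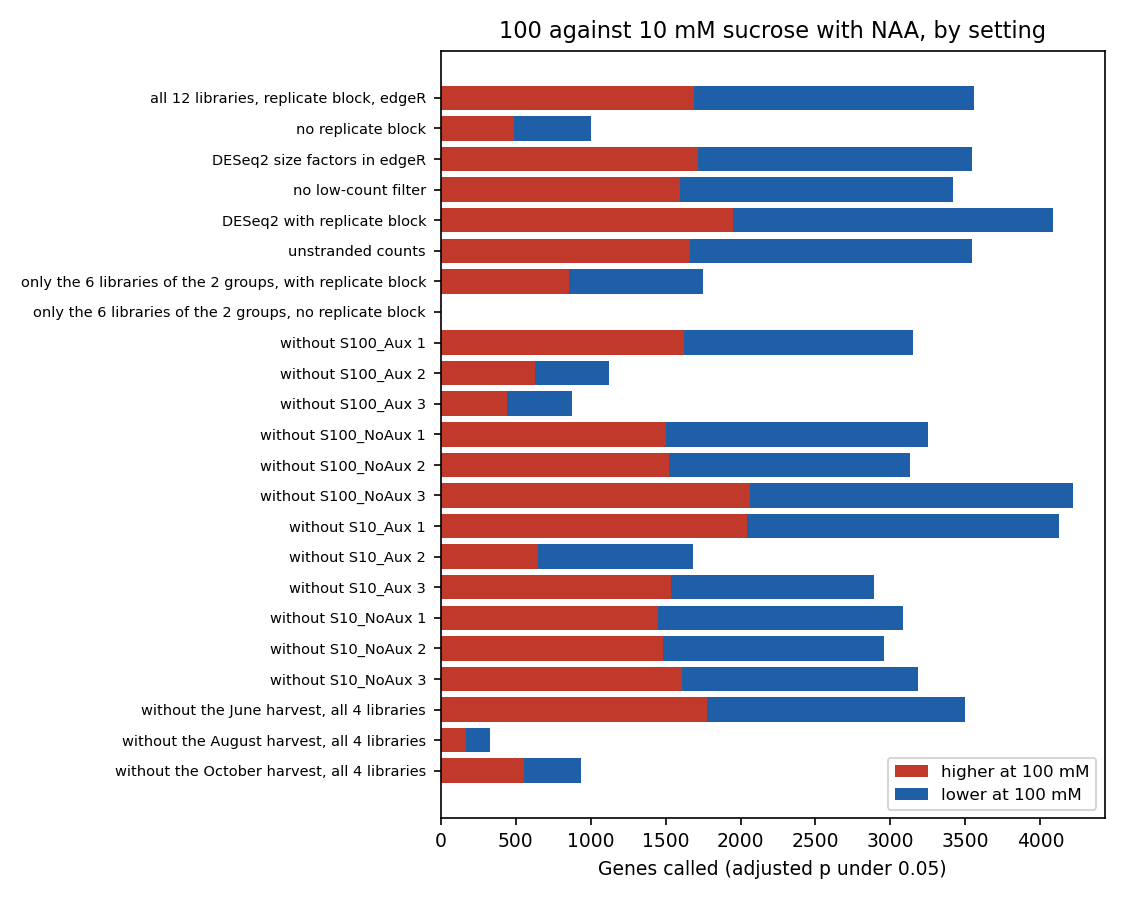
Number of genes called for 100 against 10 mM sucrose with NAA (x axis), split by direction, under each setting. The setting at the top gives 3559. Group names with S10 and S100 stand for 10 and 100 mM sucrose, and Aux and NoAux for NAA present or absent. The count falls to 1 for the 6 libraries with NAA alone with no block and to 328 without the August harvest.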

How the data were processed

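Messenger RNA was sequenced from 12 libraries, polyA-selected, stranded and paired-end per the labels' protocols. The authors deposited raw whole-number counts per gene, not normalised, in 3 columns for unstranded, forward and reverse counting, per the file headers. TopHat2 and Bowtie2 are named, per the submitters' processing notes. Neither the genome build nor the annotation is given in the sources used here. Reverse-strand values were taken, since forward counts made up 3.37% to 5.00% of both strands. The 4 summary rows, 17.3% to 23.2% of a library's reads, were left out. Multimapping reads (3.15% to 5.44%) were not counted, so genes with near-identical copies are uncertain.

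Counts were analysed with edgeR 4.0.16 in R 4.3.3. filterByExpr (minimum count 10, minimum total 15) left 24267 of 42307 genes, and TMM scaling was applied. A quasi-likelihood model with 1 mean per group and the replicate number as a block was fitted to all 12 libraries (6 residual degrees of freedom, biological coefficient of variation 0.187). The call threshold was a Benjamini-Hochberg adjusted p of 0.05. SE is the log2 fold change divided by the square root of its F statistic. Differences per date and shared patterns used log2 CPM with a prior count of 2. The code was tested on simulated data. No 2 libraries of a group agreed within sampling noise.

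The block comes from the labels, which give libraries of the same number 1 harvest date. Deviations from group means correlated at 0.291 to 0.592 over the 3 pairs of this comparison, and at 0.0647 to 0.592 over all 18 pairs of the same number. The series text speaks of 2 biological replicates and the titles number 3, which were followed. The labels do not say whether libraries came from separate plants, so p-values measure the spread between these libraries.

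Named genes were the 2 that rose and 2 that fell with the largest difference in mean CPM, among genes called with a log2 fold change of at least 1 in size, the same sign on all 3 dates and groups that did not overlap (619 and 580 genes). The comparison, tests and rule were chosen with earlier results of these data known. Alternatives were no block, DESeq2 1.42.0, its size factors, no filter, unstranded counts, the 6 libraries of 1 NAA level, and each library or date left out.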

Additional observations from a re-analysis of the deposited data

How the results depend on the processing

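With no replicate block, 1005 genes were called with NAA and 480 without it. The 6 libraries with NAA alone gave 1750 with the block and 1 without it. Without August the counts were 328 with NAA and 207 without it, and without October 938 and 468. With each of the 12 libraries left out in turn they ran from 875 to 4218 and from 393 to 1915, and the test of the difference by edgeR gave 0 each time. DESeq2 with the block called 8 genes for that difference. The genes called without NAA when no block was used had a median log2 fold change of 1.49 with NAA among those that rose. DESeq2's size factors, no low-count filter, unstranded counts, DESeq2 and leaving out June each kept the counts with and without NAA within 1.5 times. The lists themselves changed more when June was left out. Of the 3500 genes then called with NAA, 2616 were in the main list of 3559. The other settings just named shared 3184 to 3493 genes with that list. The 4 named genes kept their direction in all 22 alternatives each, and lost their call in 1, 6, 7 and 4 of them. The naming rule asked for the same sign on all 3 dates, and the alternatives reuse the same libraries. The kept direction thus follows from the choice of genes. The log2 fold changes ran from 1.91 to 2.95 for gene:RC7G0016600, 1.49 to 2.48 for gene:RC1G0359400, -2.99 to -1.58 for gene:RC5G0605600 and -1.42 to -1.05 for gene:RC2G0584300. The cause of these shifts was not tested.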

Other observations

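Genes called with NAA tended to sit next to each other in the list of gene IDs. Of 1135 genes that rose and were followed by a tested gene of the same ID series, 151 (13.3%) were followed by another that rose, where 7.29% of all such pairs had a rising gene in second place. Of 1264 genes that fell, 191 (15.1%) were followed by another that fell, against 7.79%. The next gene moved the other way for 7.31% of the genes that rose and 5.22% of those that fell. There were 16 runs of 3 or more consecutive rising genes, the longest of 4, and 21 runs of falling genes, the longest of 5. They held 51 of the rising and 68 of the falling genes. Whether lists of this size would give fewer runs was not tested. The pattern of like calls at consecutive IDs was looked for after the data were seen. It was also present with no replicate block, at 8.46% against 2.14% for rising and 6.84% against 2.04% for falling genes, and without the June library that stood apart, at 14.9% against 8.53% and 16.8% against 8.61%. Whether consecutive IDs are neighbours on a chromosome or copies of one gene was not tested.

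Few genes were near silent at one dose. With at most 3 counts over the 3 libraries of one group and at least 30 in the other, 6 genes were near silent at 10 mM with NAA and 4 at 100 mM with NAA, none above 58 counts in the other group. Of the 6, 4 passed the low-count filter and all 4 were called, while 0 of the other 4 passed it, so that side was not tested. The genes were picked on the same counts that the test used, so these calls are no separate result. Reads on the strand opposite to the one counted were the majority for 5 of the genes that rose (0.296%) and 7 of those that fell (0.375%), against 122 of all 24267 tested (0.503%).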
